A study of Mus musculus with 62 samples.

Results

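A set of 9 genes of de novo purine synthesis was followed through the series: Gart, Ppat, Paics, Pfas, Adsl, Atic, Prps1, Prps2 and Mthfd1. They were chosen by name, as the genes of both deposited count tables that carry these symbols, and all 9 were found among the 27179 genes of each table. Gart lies in the segment of chromosome 16 that is present in an additional copy in Ts65Dn mice, a mouse model of Down syndrome, so that Ts65Dn cells carry 3 copies of it. The other 8 genes are on other chromosomes (1, 5, 11, 12, 15 and X) and were in the usual number of copies.

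De novo synthesis builds the purine ring stepwise on phosphoribosyl pyrophosphate (PRPP) and ends at inosine monophosphate (IMP), from which AMP and GMP are made. Prps1 and Prps2 encode synthetases that make PRPP, Ppat the amidotransferase of the committed step, Gart a trifunctional enzyme of several early steps, Pfas the amidotransferase between them, Paics a bifunctional enzyme of the middle steps, Adsl a lyase, and Atic the bifunctional enzyme that closes the ring. Mthfd1 encodes a folate enzyme that supplies the formyl groups that Gart and Atic consume. Dividing cells draw on this route, whereas resting tissue relies more on salvage of existing purines.

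RNA-seq was available from E17.5 forebrain of 8 euploid and 7 Ts65Dn embryos and from hippocampus of 47 mice at 6 weeks of age, all on the background DBA/2J x B6EiC3Sn/J, with 1 library per animal. The hippocampus came from male and female euploid, Ts65Dn and Ts65Dn;Brwd1+/- mice, labelled Ts65Dn;Ts65Dn/Brwd1(+/-), with 8 animals in each group except 7 male Ts65Dn. The last genotype carries the same trisomy with 1 of the 3 copies of Brwd1, a chromatin reader gene in the same segment, replaced by a mutant allele, while Gart stays in 3 copies. The study asked whether restoring the Brwd1 copy number changes trisomic gene expression, and embryos of both sexes were mixed, without a sex in their labels.

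Library totals ran from 14.9 to 137.1 M counted reads, and the members held between 243 and 10307 reads per library, so each was measured well above the filter. Of the 62 libraries, 6 went against their labels. In 4 libraries labelled trisomic, the triplicated genes other than Gart were at euploid level, with median log2 ratios to euploid between -0.01 and 0.04. These were 1 male Ts65Dn (animal B145), 2 male Ts65Dn;Brwd1+/- (T35 and B138) and 1 female Ts65Dn;Brwd1+/- library (B136). In 1 male Ts65Dn library (B88) and 1 female euploid library (B85), Xist and Ddx3y went against the labelled sex. The log2 fold change of Brwd1 in Ts65Dn;Brwd1+/- vs. Ts65Dn was -0.25 in each sex, over groups that hold the libraries at euploid dosage. It did not pass the test by edgeR, with adjusted p-values of 0.627 in males and 0.9999 in females (unadjusted 0.0147 and 0.0274). No gene was called in either comparison. Levels below are in CPM (reads relative to the scaled library total). Without the libraries against their labels, the median of Brwd1 was 144.0 CPM in Ts65Dn;Brwd1+/- males against 174.6 CPM in Ts65Dn males. In females it was 147.2 CPM against 163.3 CPM. Hippocampal markers (Prox1, Wfs1, Fibcd1) summed to between 325 and 618 CPM in the hippocampus libraries and to at most 104 in the embryos.

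The upstream windows of 3 members are shown because Gart is the member with the additional copy and because Ppat and Paics start head to head. The Gart gene (chr16:91621395-91646972, minus strand, GRCm38.p6) begins 852 bases from the start of Son, which is read in the opposite direction. Ppat (chr5:76913249-76951578, minus strand) and Paics (chr5:76951302-76967509, plus strand) overlap by 277 bases at their starts. The kit used for the libraries does not mark strand, so reads from the overlap of Ppat and Paics cannot be assigned to a gene by their direction. The windows below are the 250 bases before the annotated start in RefSeq GRCm38.p6, written 5′ to 3′ on the strand of the gene, with 3 motifs in capitals on whichever strand they occur. The motifs are the E-box, written CACGTG. The next is the CCAAT box, which is named by its letters. The last is the GC box, written GGGCGG.
Gart, chr16:91646973-91647222, minus strand: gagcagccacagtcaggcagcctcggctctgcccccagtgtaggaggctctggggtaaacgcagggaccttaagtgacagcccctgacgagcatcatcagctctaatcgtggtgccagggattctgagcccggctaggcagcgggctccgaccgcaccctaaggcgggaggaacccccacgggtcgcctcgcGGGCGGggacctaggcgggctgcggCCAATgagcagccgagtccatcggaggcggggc
Ppat, chr5:76951579-76951828, minus strand: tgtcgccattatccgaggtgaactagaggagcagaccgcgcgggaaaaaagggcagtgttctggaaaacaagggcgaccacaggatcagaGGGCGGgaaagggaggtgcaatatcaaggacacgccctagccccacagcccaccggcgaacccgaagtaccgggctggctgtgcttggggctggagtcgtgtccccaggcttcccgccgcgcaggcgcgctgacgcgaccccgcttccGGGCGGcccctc
Paics, chr5:76951052-76951301, plus strand: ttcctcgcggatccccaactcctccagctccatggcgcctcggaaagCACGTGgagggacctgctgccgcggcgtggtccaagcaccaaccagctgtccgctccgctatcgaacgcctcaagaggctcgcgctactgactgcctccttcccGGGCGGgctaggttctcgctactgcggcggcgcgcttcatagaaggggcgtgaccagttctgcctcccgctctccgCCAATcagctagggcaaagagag
Windows were found for 8 of the 9 members. The window of Mthfd1 lies inside the outer bounds of its gene and that of Prps2 partly so, so these are not wholly upstream. That of Mthfd1 holds 1 CCAAT and 1 GC box, and that of Prps2 holds no motif. The E-box letters, the core that Myc family factors bind, were in 2 of these 8 windows (Paics and Atic) and in 6.02% of 32851 promoters of the same length. CCAAT was in 5 of 8 windows against 33.9% of all promoters, and the GC box in 7 of 8 against 32.7%. These are matches of letters only.

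In euploid hippocampus the members differed widely in level when divided by the annotated exon length. This length joins the exons of all annotated transcripts of a gene, and it can exceed the length of any single transcript. It was 1.993 kb for Prps1, 5.634 kb for Adsl and 7.985 kb for Atic, so the order below depends on the annotation as well as on the reads. Prps1 was highest, with a median of 34.7 CPM per kb over the 16 euploid adults (28.5 to 38.5), and Paics next with 25.2 (23.3 to 30.7). The ranges of these 2 genes overlapped, and neither reached down to Mthfd1 with 11.7 (10.8 to 12.8). Mthfd1 and Prps2, with 10.1 CPM per kb (8.83 to 12.2), overlapped as well. Gart followed with 6.31 (5.71 to 7.53), below every Prps2 value, and overlapped with Pfas. Pfas (4.62), Ppat (4.47), Atic (4.42) and Adsl (3.84) overlapped from each to the next. A stretch of Prps1 also occurs elsewhere: 193 of its 1916 words of 50 bases are found in Prps1l3, a near copy, so part of the reads of these 2 genes may have been split or left out by the counting.

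Gart was higher in Ts65Dn embryos. Its level was 40.3 to 47.7 CPM in the 8 euploid embryos (median 45.7) and 57.9 to 74.3 CPM in the 7 Ts65Dn embryos (median 66.6). Every Ts65Dn embryo lay above every euploid embryo, so the groups did not overlap. The log2 fold change was 0.55 (standard error, SE, 0.06, adjusted p = 2.44e-05, edgeR), which is 1.46-fold against 1.5 for 3 copies over 2. Gart was the only one of the 9 members called at an adjusted p under 0.1 in embryos, where 1.35% of the 16395 genes tested were called and 0.464% had non-overlapping groups with Ts65Dn higher. The titles of the embryos carry either of 2 longer numbers, whose meaning the labels do not give. Within the embryos of each number, the log2 fold change of Gart was 0.65 and 0.47, with adjusted p-values of 0.055 and 0.0422.

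In male hippocampus, Gart was also higher in Ts65Dn. It ran from 27.7 to 36.5 CPM in the 8 euploid males (median 30.4) and from 33.1 to 50.6 CPM in the 7 Ts65Dn males (median 45.7). The groups overlapped through a single Ts65Dn library at 33.1 CPM, animal B145, the male Ts65Dn library whose other triplicated genes were at euploid level too. The log2 fold change was 0.53 (SE 0.10, adjusted p = 0.0143). Gart was again the only member called, against 0.795% of 16851 genes. Without the male libraries that went against their labels, Gart ran from 45.2 to 50.6 CPM in the 5 remaining Ts65Dn males. The log2 fold change was then 0.60 (SE 0.06, adjusted p = 8.06e-07, edgeR). B145 was left out for the level of the other triplicated genes, which share the additional copy with Gart. That choice by itself moves the value of Gart up, so this fit is not separate evidence.

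In female hippocampus the groups did not overlap. Gart was between 28.4 and 32.02 CPM in the 8 euploid females (median 31.2) and between 44.3 and 52.1 CPM in the 8 Ts65Dn females (median 45.4). No Ts65Dn female reached down to the euploid range, which held with Ts65Dn higher for 0.438% of the genes compared. The log2 fold change was 0.61 (SE 0.07, adjusted p = 6.95e-06), or 1.53-fold, and 3.17% of 17146 genes were called in this comparison, with Gart the only member among them. The sex by genotype interaction of Gart had a log2 value of 0.09 (SE 0.12, adjusted p = 0.837), so a difference between the sexes in the effect of Ts65Dn was not detectable.

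**Figure D1:**
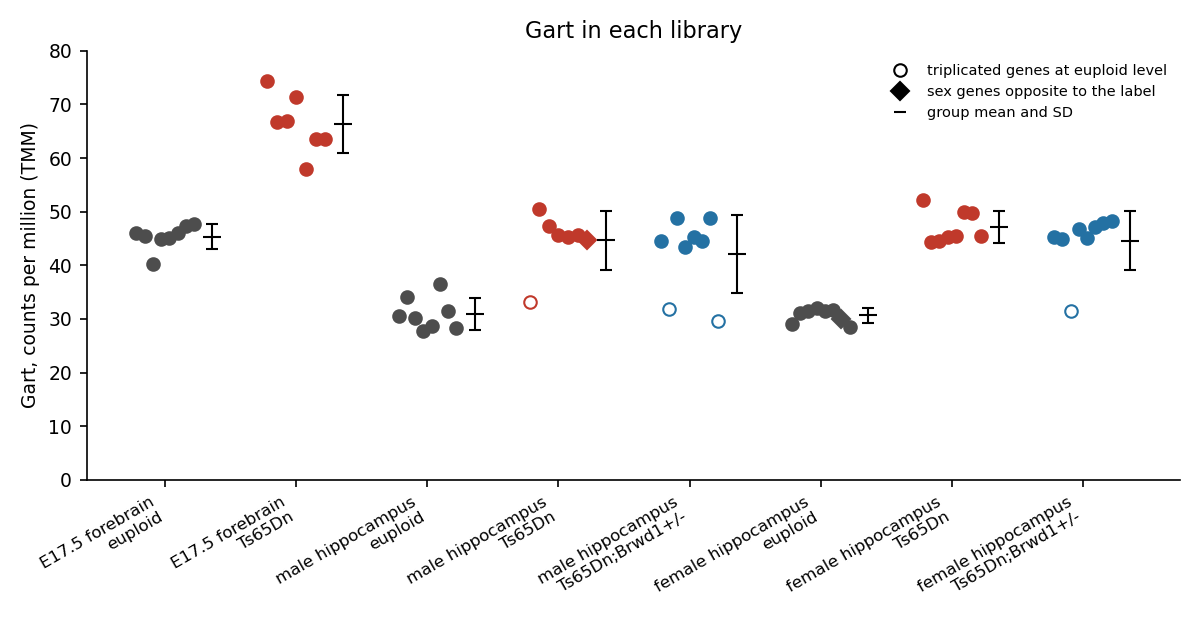
Gart in CPM (vertical axis, from 0) in each of the 62 libraries, by group, with the group mean and SD beside the points. Open circles are the 4 libraries labelled trisomic whose other triplicated genes were at euploid level, and they lie between 29.6 and 33.1 CPM, inside or near the euploid range. Diamonds are the libraries whose sex genes went against the label.

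With the Brwd1 copy number restored, a change of Gart was not detectable. Gart was 29.6 to 48.8 CPM in the 8 male Ts65Dn;Brwd1+/- mice (median 44.6) and 31.4 to 48.3 CPM in the 8 female ones (median 46.1). The lowest values belong to the libraries T35, B138 and B136, in which the other triplicated genes were at euploid level as well, and the remaining 6 males and 7 females lay between 43.5 and 48.8 CPM. Against Ts65Dn, the log2 fold change of Gart was -0.08 in males (SE 0.10, adjusted p = 0.907) and -0.07 in females (SE 0.07, adjusted p = 0.9999). Without the libraries against their labels it was -0.03 in males (SE 0.06) and -0.02 in females (SE 0.04). None of the 9 members was called by edgeR or by DESeq2, with or without RUVr factors, in either sex. With all libraries, none had an unadjusted p under 0.05 in edgeR, where 7.48% of the genes tested in males and 3.52% in females did. The share called at an adjusted p under 0.1 was 0.0% in both sexes. Without the male libraries against their labels, Prps1 had a log2 fold change of 0.11 (SE 0.045, unadjusted p = 0.0253, adjusted p = 0.515, edgeR).

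Against euploid, Gart stayed higher in Ts65Dn;Brwd1+/- mice. This comparison uses the same euploid libraries as Ts65Dn vs. euploid, so the results are not independent. In females the log2 fold change was 0.54 (SE 0.07, adjusted p = 5.14e-05), where 0.729% of genes were called. In males it was 0.44 (SE 0.10, adjusted p = 0.0536), where 0.576% were called, and 7 of 8 males lay above the euploid median. The male call was lost at an adjusted p under 0.05, and when any of 5 trisomic-dosage males of this genotype (B137, B26, B51, B69 or B94) was left out, with adjusted p-values up to 0.122. Without the male libraries against their labels the log2 fold change was 0.57 (SE 0.06, adjusted p = 8.03e-07, edgeR). T35 and B138 were left out for the level of the other triplicated genes, so the rise follows in part from that choice.

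Next, Gart was set beside the other triplicated genes, to see whether it followed them. In each library, the log2 ratio of Gart to its euploid mean was compared with the median of the same ratio over the other triplicated genes tested. In the 7 Ts65Dn embryos that median was 0.56 to 0.60 and Gart was 0.35 to 0.71. The difference, Gart minus the others, averaged -0.04 ± 0.13 (SD, n = 7) over the Ts65Dn embryos, against -0.01 ± 0.06 (SD, n = 8) over the euploid ones, and the exact permutation test, 2-sided, gave p = 0.605. In Ts65Dn hippocampus it was 0.03 ± 0.09 (SD, n = 7) in males and 0.06 ± 0.09 (SD, n = 8) in females. Against euploid, the exact permutation tests gave p = 0.518 in males and p = 0.0765 in females, or 0.605 and 0.382 after Benjamini-Hochberg adjustment over 5 comparisons. For Ts65Dn;Brwd1+/- vs. Ts65Dn the exact p-values were 0.428 in males and 0.545 in females. A departure of Gart from the median of the other triplicated genes was not detectable in any of the 5 comparisons.

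**Figure D2:**
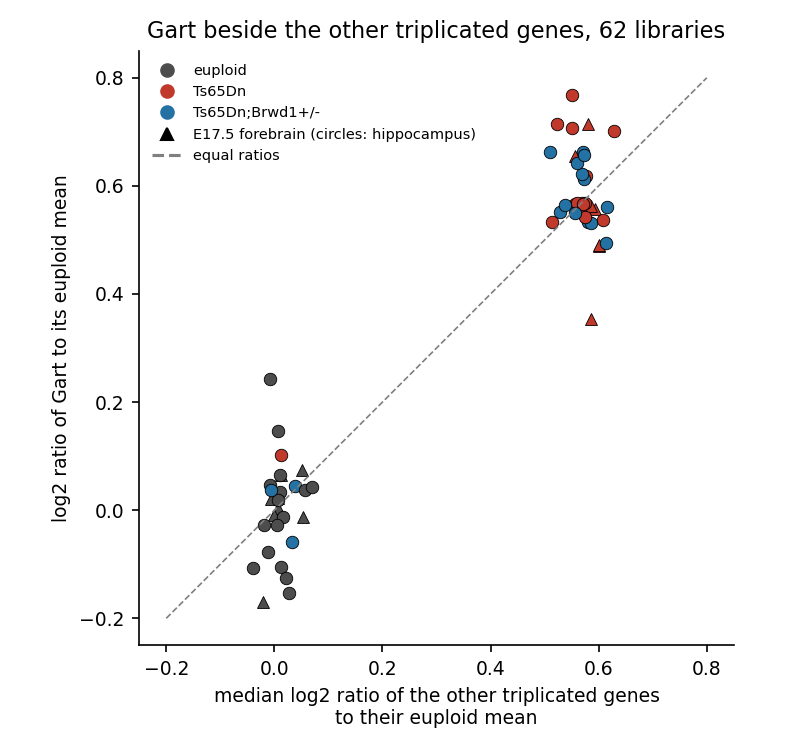
Log2 ratio of Gart to its euploid mean (vertical axis) against the median log2 ratio of the other triplicated genes (horizontal axis), 1 point per library, with the line of equal ratios. The libraries form a group near 0 and a group near 0.6 on both axes, and the 4 trisomic-labelled libraries at euploid dosage sit in the lower group.

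The log2 fold change of Gart in Ts65Dn vs. euploid exceeded that of 60 of 132 other triplicated genes tested in embryos (median 0.56, quartiles 0.47 and 0.69), 78 of 132 in males (median 0.50) and 94 of 133 in females (median 0.53). Its p-value was among the smaller ones in females, where only 2 of the other 133 triplicated genes had a smaller p, against 11 in embryos and 24 in males.

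The 11 closest neighbours on chromosome 16, which include 4 cytokine receptor chains (Ifnar2, Il10rb, Ifnar1 and Ifngr2), rose with Gart. In embryos all 11 were called, with log2 fold changes from 0.42 (Dnajc28) to 1.01 (Il10rb) and a median of 0.59, beside 82 of the 132 other triplicated genes and 1.35% of all genes. In male and female hippocampus 10 of 11 were called, with medians of 0.53 and 0.56, beside 72 of 132 and 85 of 133 other triplicated genes and 0.795% and 3.17% of all genes. The exceptions were Il10rb in males (0.49, adjusted p = 0.277) and Son in females (0.52, adjusted p = 0.128). Son encodes a splicing cofactor and starts head to head with Gart. Its log2 fold change was 0.70 (SE 0.10) in embryos and 0.57 (SE 0.11) in males. Across animals of a group the pair did not follow each other closely, since the Pearson correlation of their deviations from the group means was 0.30 over the 47 hippocampus libraries and -0.16 over the 15 embryos.

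**Figure D3:**
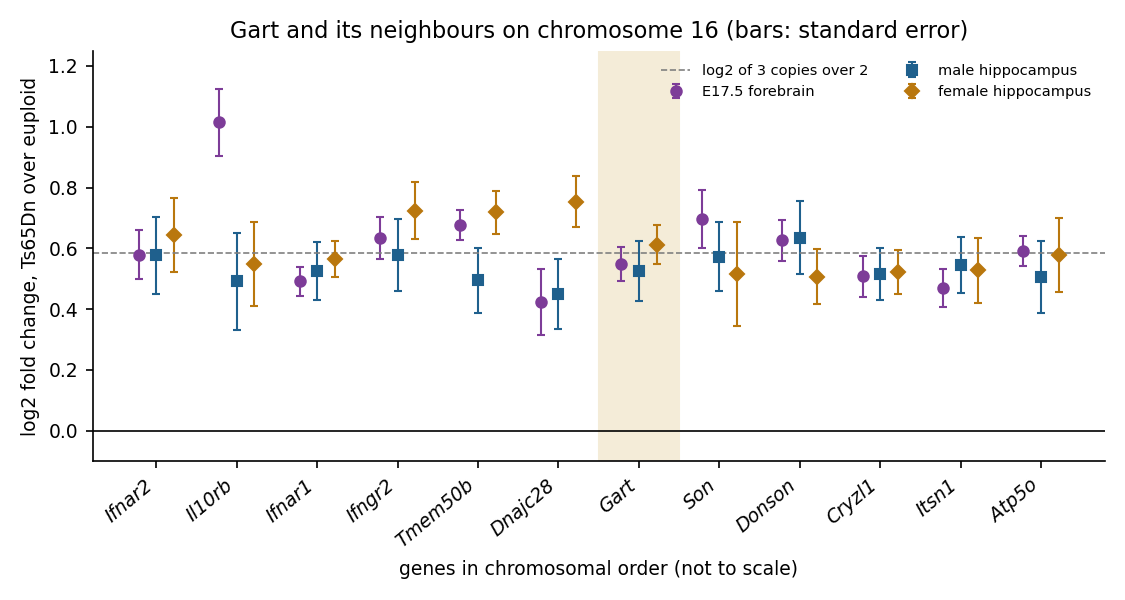
Log2 fold change, Ts65Dn over euploid, of Gart (shaded) and the 11 neighbouring genes in chromosomal order, with standard errors, in E17.5 forebrain, male and female hippocampus. All values are above 0 and most lie near the dashed line at 0.58, the log2 of 3 copies over 2; Il10rb in embryos is the highest at 1.01.

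The 8 members in the usual number of copies showed no call by edgeR in Ts65Dn vs. euploid in embryos, males or females. In embryos their log2 fold changes lay between -0.12 and 0.19 with a median of -0.01, and the smallest adjusted p was 0.454. In males they lay between -0.16 and 0.03 with a median of -0.06 (smallest adjusted p 0.503), and in females between -0.32 and 0.05 with a median of -0.03 (smallest adjusted p 0.115). The medians over all genes tested were -0.01, 0.00 and -0.02. The standard errors of these members ran from 0.03 to 0.11. In simulated data with these group sizes, 69 of 100 genes changed 1.5-fold were recovered for the embryos, 79 for males and 77 for females. Smaller changes would be missed more often. The changed genes were drawn at random from genes of widely differing level and spread. The shares are thus averages over such genes, and they do not give the chance of missing a change in these 8 members.

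**Figure D4:**
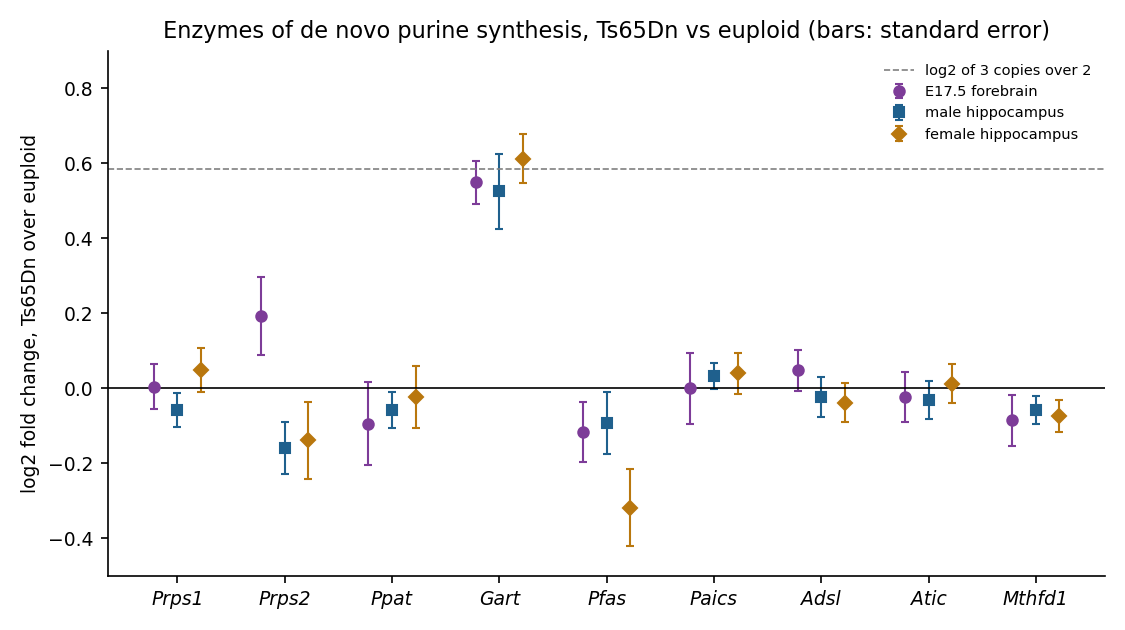
Log2 fold change, Ts65Dn over euploid, of the 9 members in pathway order (vertical axis), with standard errors, in E17.5 forebrain, male and female hippocampus. Gart stands near the dashed line at 0.58 in all 3, and the other 8 lie between -0.32 and 0.19.

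Among the PRPP synthetases, Prps1 had the smaller differences between Ts65Dn and euploid. It was 47.2 to 63.0 CPM in euploid and 50.7 to 61.8 CPM in Ts65Dn embryos, with log2 fold changes of 0.00 in embryos, -0.06 in males and 0.05 in females (SEs 0.04 to 0.06). Prps2 varied more. In males it was 35.4 to 43.3 CPM in euploid (median 37.5) and 30.6 to 39.6 CPM in Ts65Dn (median 33.8), so that 5 of 7 Ts65Dn males lay below the whole euploid range. Its log2 fold change in males was -0.16 (SE 0.07, adjusted p = 0.503) and did not pass the test by edgeR. The study used DESeq2 with RUVr factors (unwanted variation estimated from residuals), and factors of this kind were recomputed here. With them in DESeq2, Prps2 in males was called at 2 factors (-0.16, adjusted p = 0.0324) and 3 factors (-0.16, adjusted p = 0.00709), and not at 1. Without the male libraries against their labels it was -0.24 (SE 0.07, adjusted p = 0.116). In embryos all 7 Ts65Dn libraries were above the euploid median of 17.04 CPM, and all 7 were within the euploid range of 15.04 to 23.95 CPM. The log2 fold change of Prps2 in embryos was 0.19 (SE 0.10, adjusted p = 0.454). In females it was -0.14 (SE 0.10, adjusted p = 0.574), called with DESeq2 at 3 factors only (-0.13, adjusted p = 0.0709). At 3 factors more of all genes were called as well in both sexes, as counted at the end. The counts over all genes at 1 and 2 factors are not given.

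Prps2 also moved with the choroid plexus content of the libraries. Over the 47 hippocampus libraries, the deviations of Prps2 from its group means had a Pearson correlation of 0.76 with those of Ttr, the main transcript of choroid plexus epithelium, and the gene most like Prps2 was Trpm3, with 0.87. Over the 15 embryos the correlation with Ttr was 0.56. These points share library preparation and depth. All 10 choroid plexus markers were measured, none at 0 in any library, and their sum ran from 117 to 5025 CPM in euploid males (median 1087) and from 46.3 to 5259 CPM in Ts65Dn males (median 132). In females the medians were 2040 in euploid and 585 in Ts65Dn, and in embryos 898 and 1246. Euploid and Ts65Dn thus stood in the same order as for Prps2 in each comparison. In Ts65Dn;Brwd1+/- mice the median sum was 833 CPM in males and 2112 CPM in females. Against Ts65Dn, the log2 fold change of Prps2 in this genotype was 0.00 (SE 0.07) in males and 0.07 (SE 0.10) in females. Against euploid it was -0.16 (SE 0.07) and -0.06 (SE 0.10). The part of choroid plexus content in the Prps2 values was not tested.

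Ppat, which commits PRPP to the route, overlapped between the genotypes throughout. It was 17.6 to 21.1 CPM in euploid males and 17.7 to 19.4 CPM in Ts65Dn males, a median of 18.1 and 17.97 CPM in females, and 16.4 to 29.3 and 19.6 to 27.1 CPM in embryos. The log2 fold changes were -0.09 in embryos, -0.06 in males and -0.02 in females (adjusted p-values 0.723 to 0.936).

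Pfas, the amidotransferase that works between the steps of Gart, was the member that came closest to a call outside Gart. It was 23.9 to 45.1 CPM in euploid females (median 39.2) and 28.2 to 35.4 CPM in Ts65Dn females (median 29.9). All 8 Ts65Dn females were below the median of the euploid females, yet all 8 were within the euploid range, because a single euploid female (B125) was at 23.9 CPM while the other 7 were at 33.55 or more. That library also had 4851 CPM of Ttr, the choroid plexus transcript, against a euploid female median of 1830. Over the 47 hippocampus libraries, the deviations of Pfas and Ttr from their group means had a Pearson correlation of -0.37. Between the groups, the median choroid plexus sum was higher in euploid females (2040 CPM) than in Ts65Dn females (585 CPM), as was Pfas. The part of choroid plexus content in the Pfas values was not tested. The log2 fold change of Pfas in Ts65Dn vs. euploid females was -0.32 (SE 0.10, adjusted p = 0.115). DESeq2, alone or with 3 RUVr factors, called more of all genes in this comparison than edgeR, as counted at the end. The call of Pfas depended on the treatment of the data. It was made with DESeq2 and 1, 2 or 3 RUVr factors (-0.29 in each, adjusted p = 4.48e-05, 3.91e-06 and 2.43e-07). It was also made with DESeq2 alone (-0.31, adjusted p = 0.0786), with upper-quartile factors (adjusted p = 0.0989), with all 6 adult groups in a single fit (adjusted p = 0.0508) and without the euploid female B125 (-0.39, adjusted p = 0.0117). Without the female libraries against their labels it was not made (-0.30, adjusted p = 0.194). In Ts65Dn;Brwd1+/- vs. euploid females Pfas had a log2 fold change of -0.30 (SE 0.10, adjusted p = 0.266) by edgeR, over the same euploid libraries. There it was called by DESeq2 with 1 to 3 RUVr factors (-0.28 in each, adjusted p from 0.000103 to 8.36e-07). The share of all genes called with these factors is not given. The log2 fold changes were -0.09 in males (adjusted p = 0.813) and -0.12 in embryos (adjusted p = 0.549), and the sex by genotype interaction was -0.22 (SE 0.13, adjusted p = 0.57). The gene most like Pfas across animals was Ryr3, a calcium release channel of neurons, with a correlation of deviations of 0.92 over the 47 hippocampus libraries.

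Paics, the bifunctional enzyme of the middle steps, differed little between the genotypes. It was 114.6 to 176.8 CPM in euploid and 112.1 to 173.5 CPM in Ts65Dn embryos, with a log2 fold change of 0.00 (SE 0.10). In hippocampus it was 73.8 to 85.2 CPM in euploid and 76.4 to 84.0 CPM in Ts65Dn males, and 69.2 to 91.2 and 71.0 to 85.8 CPM in females, with log2 fold changes of 0.03 (SE 0.03) and 0.04 (SE 0.05). Adsl, the lyase that also acts in AMP synthesis, had log2 fold changes of 0.05, -0.02 and -0.04 in embryos, males and females. Atic, at the end of the route, had -0.02, -0.03 and 0.01, and Mthfd1 had -0.09, -0.06 and -0.07 (SEs 0.04 to 0.07). None passed the test.

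The interactions of sex with genotype gave no call among the 9 members or among all 17427 genes tested by edgeR (0.0%). At an unadjusted p under 0.05, no member passed in either interaction, where 11.1% of genes did for Ts65Dn vs. euploid and 3.73% for Ts65Dn;Brwd1+/- vs. Ts65Dn. DESeq2 without factors called 94 genes and 1 gene in the same interactions, with no member among them. With 2 and 3 RUVr factors, Pfas was called in the interaction of sex with Ts65Dn vs. euploid (-0.19 in each, adjusted p = 0.0674 and 0.0164). The share of all genes called with these factors is not given, so this call cannot be set against it.

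Female and male hippocampus were compared directly because Prps1 and Prps2 are on chromosome X. Prps1 was lower in females, with medians of 61.4, 62.5 and 65.7 CPM in euploid, Ts65Dn and Ts65Dn;Brwd1+/- females and of 69.9, 66.8 and 70.4 CPM in the males of the same genotypes. The ranges overlapped, and the log2 fold change was -0.09 (SE 0.03, adjusted p = 0.0899). It was 1 of 9 members called, against 7.36% of 17427 genes, 3.76% lower in females. With upper-quartile factors the split of all calls moved from 627 higher and 655 lower to 843 higher and 479 lower. The Prps1 call did not hold without the 6 libraries against their labels (-0.09, adjusted p = 0.105, chosen after seeing the data), with upper-quartile factors (-0.07, adjusted p = 0.204) or without the filter on low counts (adjusted p = 0.116). Prps2, also on X, had 0.00 (SE 0.05, adjusted p = 0.992), and Gart had 0.05 (SE 0.05, adjusted p = 0.639). Ppat and Paics had -0.09 (adjusted p = 0.197) and -0.07 (adjusted p = 0.14). Prps1l3, the near copy of Prps1, was also lower in females (-0.12, SE 0.03, adjusted p = 0.0151).

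The embryonic forebrain and the adult hippocampus differed far more than the genotypes did. Of the 9 members, 7 were called between the 8 euploid embryos and the 16 euploid adults, 4 higher and 3 lower in the embryo, against 84.6% of 17234 genes called, 42.9% higher and 41.7% lower. Stage, tissue and sequencing table cannot be told apart here. Atic (0.68, SE 0.06), Paics (0.54, SE 0.06), Adsl (0.53, SE 0.04) and Gart (0.24, SE 0.05) were higher in the embryo, with adjusted p-values from 2.22e-12 to 5.51e-05. Prps2 (-1.35, SE 0.09), Prps1 (-0.53, SE 0.05) and Mthfd1 (-0.53, SE 0.05) were lower, with adjusted p-values from 2.3e-13 to 6.1e-10. Ppat (0.04) and Pfas (0.04) had adjusted p-values of 0.678 and 0.69.

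On a common scale over all 62 libraries, the ranges of 5 members did not overlap between euploid embryos and adults, against 45.8% of all genes tested. Atic was 45.4 to 65.5 CPM in embryos (median 57.0) and 31.96 to 40.7 CPM in adults (median 35.3). Prps2 was 12.6 to 20.1 CPM in embryos (median 14.3) and 34.2 to 47.2 CPM in adults (median 39.1). The other 3 were Adsl, Prps1 and Mthfd1, whereas Gart overlapped, with 32.8 to 40.2 CPM in embryos and 29.4 to 38.7 CPM in adults. Per kb of exon, the ratio of Prps2 to Prps1 was 0.13 to 0.22 in euploid embryos and 0.23 to 0.40 in euploid adults, so the embryonic range lay below the adult one, and Paics took the place of Prps1 as the highest member, with 37.4 CPM per kb against 23.6.

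**Figure D5:**
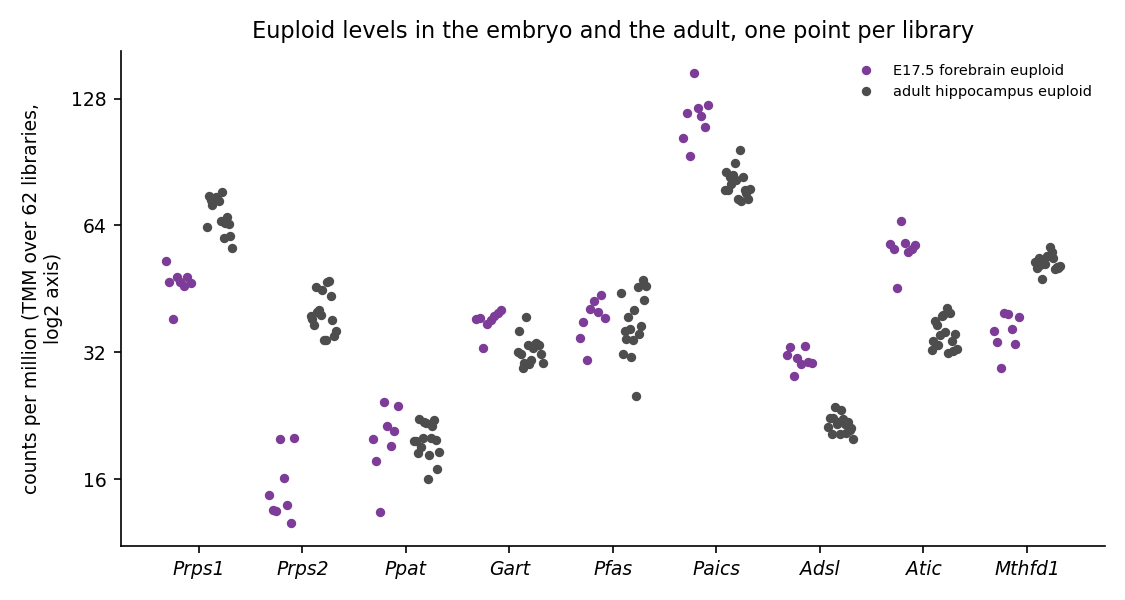
Level of each member in CPM (vertical log2 axis, TMM scaling over 62 libraries) in the 8 euploid E17.5 forebrain libraries and the 16 euploid adult hippocampus libraries, 1 point per library. Adsl and Atic lie above and Prps1, Prps2 and Mthfd1 below the adult range in the embryo.

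The rest of purine, pyrimidine and folate metabolism was taken from fixed lists of 75 symbols, of which 69 were tested in embryos and 71 in the adults. In Ts65Dn vs. euploid, none of these genes was called in embryos (smallest adjusted p 0.152, 12 at an unadjusted p under 0.05, against 12.1% of all genes) or in males (smallest adjusted p 0.279, 9 at an unadjusted p under 0.05, against 8.91%). In females 1 of 71 was called, Ak4, a mitochondrial adenylate kinase (0.34, SE 0.10, adjusted p = 0.0769), against 3.17% of all genes. At an unadjusted p under 0.05 there were 11 of 71, against 2643 of all 17146 genes tested. In Ts65Dn;Brwd1+/- vs. euploid males 1 of 71 was called, Shmt2, the mitochondrial serine hydroxymethyltransferase (0.23, SE 0.06, adjusted p = 0.0699), against 0.576% of all genes. In Ts65Dn;Brwd1+/- vs. Ts65Dn none was called in either sex, with 7 at an unadjusted p under 0.05 in males and 1 in females, against 7.48% and 3.52% of all genes.

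Between the euploid stages, 65 of these 71 genes were called, 37 higher and 28 lower in the embryo, against 84.6% of all genes called, 42.9% higher and 41.7% lower. Of the 17 salvage and turnover genes tested, 10 were lower and 5 higher in the embryo, with a median log2 fold change of -0.56 beside 0.02 over all genes. Hprt, which salvages hypoxanthine and guanine, was -1.49, Xdh, an enzyme of purine breakdown, -5.31, and Adk, the adenosine kinase, -1.11. Of the 13 genes from IMP to the nucleotides tested, 6 were higher and 7 lower, among them Impdh2, the rate-limiting enzyme of GMP synthesis (1.35), and Gmpr, which turns GMP back to IMP (-2.42). In pyrimidine synthesis 7 of 8 genes were higher, with Cad, which starts the route, at 1.28. In the folate list 10 were higher and 8 lower of 22, with Tyms, the thymidylate synthase, at 2.63. Of the 8 regulators listed, 6 were higher and 2 lower in the embryo. Mycn (3.09), Myc (2.27) and Mycl (1.58), factors known to drive nucleotide synthesis genes, were higher, and Mtor (-0.73) and Rptor (-0.69), of the growth kinase complex mTORC1, were lower. All 10 markers of proliferating progenitors were higher too, with a median of 3.34 and Top2a at 5.41, and all 4 oligodendrocyte markers were lower, with a median of -6.21. The progenitor markers summed to 483 to 811 CPM over 10 genes in euploid embryos and to 88.7 to 145.2 CPM over 9 genes, without Ccnb1, in euploid adults. The part of cell composition in the members' values was not tested, and in bulk tissue fewer cells of a type and less RNA per cell cannot be told apart.

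The genes whose level most resembled that of Gart were all triplicated. Over the 47 hippocampus libraries these were App (Pearson correlation of log2 CPM 0.96), Ifnar1 (0.94), Get1 (0.93), Rcan1 (0.93) and Cryzl1 (0.93), and over the 15 embryos Scaf8 (0.98), Dyrk1a (0.96), Tmem50b (0.94), Sft2d1 (0.94) and Ifngr2 (0.93). These values hold the difference in copy number between the groups. For 5 other members, the closest genes by deviations from the group means over the 47 hippocampus libraries were Akr1a1 for Paics (0.85), Rab3b for Atic (0.71), Lrrk2 for Ppat (0.68), Nipsnap2 for Mthfd1 (0.65) and 4930451G09Rik for Adsl (0.61).

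Among the members themselves, values across animals were loosely related in the hippocampus. Over the 36 pairs of members the correlation of deviations from the group means ran from -0.72 (Paics with Pfas) to 0.59 (Paics with Atic), with a median of 0.04. Over the 15 embryos it ran from -0.37 to 0.84 with a median of 0.37, and the highest value was that of Atic with Mthfd1. The head-to-head pair Ppat and Paics had 0.24 in hippocampus and 0.81 in embryos. Library preparation, depth and tissue composition are shared by the points.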

How the data were processed

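Total RNA was sequenced from E17.5 forebrain and adult hippocampus with the TruSeq RNA v2 kit, single-read, 1 library per animal. The authors mapped reads to mm10 with HISAT2 and counted reads per gene with featureCounts 2.0.1, and the deposited values are raw counts per gene, not normalized. The notes of the submitters give HISAT2 2.1.0.

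Symbols and positions were matched to RefSeq GRCm38.p6 by Entrez identifier, and 0.251 to 1.85% of counts fell on unmatched genes. Within each table, edgeR 4.0.16 (quasi-likelihood test, TMM factors, filterByExpr with a minimum count of 10) was fitted across all genes, with Benjamini-Hochberg adjustment and a call at an adjusted p under 0.1, the cutoff of the study. E17.5, male and female libraries were fitted separately, sex and stage jointly. Log2 CPM used a prior count of 0.5. The relation of Gart to the other triplicated genes used exact permutation tests over libraries. The fits were tested on simulated data.

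Alternatives were other normalizations, filters and thresholds, DESeq2 1.42.0 without and with up to 3 RUVr factors (the study used RUVr and DESeq2), other sets of libraries and each library left out. The RUVr factors were computed here from the residuals of a count fit, without the package of the study, so they approximate its factors. A library went against its label where a trisomic animal had triplicated genes at a median log2 ratio to euploid under 0.25, or where Xist and Ddx3y went against the sex. No 2 libraries of a group were alike within sampling noise (chi-square per degree of freedom at least 9.05 over 210 pairs).

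The 9 members were named in every comparison, the neighbours of Gart in Ts65Dn vs. euploid, at most 5 called genes per list and comparison by smallest p, and the genes most like each member, of which 1 is not reported here. Members and lists were chosen with earlier results of these data known. Intervals and errors cover the spread between animals and counting error only.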

Additional observations from a re-analysis of the deposited data

Results flagged for a closer look

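Dixon's ratio was taken in 80 sets of libraries, those of the 8 groups for the log2 CPM of each of the 9 members and for the difference of Gart from the other triplicated genes. In 5 of 80, all of a member's log2 CPM, the lowest library stood apart from the others by this ratio, the gap to the nearest library over the whole range, at the 95% level. Chance gives about 1 in 20, or 4 of 80. For Gart, the euploid embryo 3 (40.3 CPM, the others 44.9 to 47.7) had a ratio of 0.64, and it was the library with the lowest total, 14.9 M reads. The female Ts65Dn;Brwd1+/- library B136 (31.4 CPM, the others 44.8 to 48.3) had a ratio of 0.826 and the male Ts65Dn library B145 (33.1 CPM, the others 44.8 to 50.6) a ratio of 0.712, and in both the other triplicated genes were at euploid level. For Pfas, the female euploid library B125 (23.9 CPM, the others 33.55 to 45.1) had a ratio of 0.534. For Prps1, the male euploid library B100 (60.4 CPM, the others 67.5 to 71.2) had a ratio of 0.671.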

How the results depend on the processing

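Gart stayed higher in both trisomic genotypes than in euploid under every alternative run, and no called member reversed. In 51 values of 22 results under other settings, and 75 values of 16 results with a library left out, the sign of a member that was not called changed. The number of members called in male Ts65Dn vs. euploid was 1 and became 2 with 2 or 3 RUVr factors in DESeq2, which added Prps2. In male Ts65Dn;Brwd1+/- vs. euploid it was 1, became 0 at an adjusted p under 0.05, 2 with 2 or 3 RUVr factors (Prps2 added), and 0 to 1 with a library left out. In female Ts65Dn vs. euploid it was 1, became 2 with upper-quartile factors, with DESeq2, with 1 or 2 RUVr factors and with all 6 adult groups in the fit, 3 with 3 RUVr factors (Pfas, then Prps2 added), and 1 to 2 with a library left out (2 without B125, B173, B56 or B176). In female Ts65Dn;Brwd1+/- vs. euploid it was 1, became 3 with 1 or 2 RUVr factors, 4 with 3 (Pfas and Prps1, then Mthfd1 added), and 1 to 3 with a library left out (3 without B125). In the interaction of sex with Ts65Dn vs. euploid it was 0 and became 1 (Pfas) with 2 or 3 RUVr factors. In female vs. male it was 1 and became 0 at an adjusted p under 0.05, with upper-quartile factors, without the filter and without the libraries against their labels, an alternative added for the sex and stage comparisons after seeing the data. In Ts65Dn vs. euploid, DESeq2 alone and with 3 RUVr factors also called more of all genes, with the counts given below. For Ts65Dn;Brwd1+/- vs. euploid and the interaction, the counts over all genes with RUVr factors are not given. The member counts with RUVr factors there have no share of all genes beside them. The same holds for 1 and 2 factors in Ts65Dn vs. euploid. The causes were not tested.

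Over all genes, the calls in Ts65Dn vs. euploid were 221 of 16395 in embryos, 134 of 16851 in males and 543 of 17146 in females. The same genes gave 587, 249 and 1050 calls with DESeq2, rising to 4067, 1197 and 4375 with 3 RUVr factors. With edgeR at an adjusted p under 0.05 the calls were 115, 83 and 264, and without the libraries against their labels 259 in males and 327 in females. With a library left out they ran from 122 to 456, 83 to 224 and 285 to 1603. With the replicate block, the embryos gave 121 calls and 1 member, Gart, at 0.56 (adjusted p = 0.00472). The replicate numbers of the embryos do not pair them by label, and the correlations of same-numbered deviations ran from -0.13 to 0.23 over 7 pairs, with 1 of 7 Ts65Dn embryos closest to its own number. The members had at least 243 reads in every library, and the part of depth in their values was not tested. Small changes were within the spread between animals.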

Other observations

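Son, the neighbour of Gart, varied with Pfas and Paics across animals of a group. Over the 47 hippocampus libraries, the deviations of Son from its group means had a Pearson correlation of 0.53 with those of Pfas, -0.71 with those of Paics and -0.59 with those of Atic, and Pfas and Paics had -0.72 with each other. Over the 15 embryos, Son had 0.71 with Pfas, 0.34 with Paics and -0.02 with Atic, and Pfas and Paics had 0.37 with each other, of the opposite sign. The hippocampus groups hold the 4 trisomic-labelled libraries at euploid dosage, and Son is itself triplicated. The correlations without those libraries were not computed. These pairs were picked after their values were seen, the points share library preparation and depth, and no test was run.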
